A study of Mus musculus with 14 samples.

Results

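Neuropeptide Y and genes of the neurons that signal hunger were examined as 7 genes of the 17097 measured in the mouse hypothalamus: the peptide gene Npy, its receptor genes Npy1r, Npy2r and Npy5r, the ghrelin receptor gene Ghsr, the activin-type receptor gene Acvr1c and the serpin gene Serpina3n. They were named with the fasting values of these arrays already known, so their fasted minus fed differences are given as a description and without a test. The genotype differences and the interaction were tested. Both use the same arrays, and the interaction contains the control fasting difference, so these tests are not independent of that choice. Each gene was represented by the probe set that names it alone and has the highest mean over the 14 arrays, and all 7 were found. The mice were 12 weeks old, on a background of C57Bl/6J, FVB/N and 129. The groups were control mice fed at random (n = 4) or fasted for 16 h (n = 3), and POMCMfn1KO mice, which lack Mfn1 in neurons that express pro-opiomelanocortin (POMC), fed at random (n = 4) or fasted for 16 h (n = 3). The alleles of the control mice and the driver of the deletion were not given in the sources used here. The array title numbers differ throughout, and nothing says that each array holds a separate mouse, so the errors measure the spread between these samples, which may be technical.

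NPY is made by neurons of the arcuate nucleus that also make agouti-related peptide, and is among the strongest known stimulants of feeding. These neurons carry receptors for ghrelin, the stomach hormone of hunger, and are held back by leptin and insulin. NPY acts on receptors coupled to inhibitory G proteins. The Y1 and Y5 receptors pass on its feeding signal, and the Y2 receptor sits largely on the endings of NPY neurons themselves and limits release. The neighbouring POMC neurons oppose them through melanocortins. NPY is also made outside the arcuate nucleus, in many interneurons of the cortex and hippocampus.

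The probe sets had values on a log2 scale on which 1 unit is a doubling, and 23 probe sets with no target had a median of 3.64 (from 3.41 to 5.28). The tissue label was checked against 12 hypothalamic markers. Hcrt, Pmch, Avp and Oxt, which encode orexin, melanin-concentrating hormone, vasopressin and oxytocin, had means of 10.55, 12.42, 10.68 and 10.62, whereas the transcription factor genes Nkx2-1, Otp, Rax, Six6 and Nr5a1 lay within 1 unit of the background median. All 7 markers of the thalamus were more than 1 unit above it. Prkcd, Calb2, Rora, Tcf7l2, Plekhg1 and Synpo2 had means of 11.39, 11.29, 10.88, 10.74, 10.28 and 10.04, and Lef1 had 6.21. The check therefore does not show that the samples are free of thalamus. Mfn1 was between 8.99 and 9.12 on every array, and since POMC neurons are a small share of this tissue it does not check the genotype labels. For 9 measured markers of cortex and hippocampus, the mean deviation (score) of control fed replicate 1 was 0.93 and that of knockout fed replicate 4 was 0.39, whereas the other 12 arrays had -0.19 to 0.09. Neurod6, Emx1 and Fezf2 of this list were within 1 unit of the background median. Pomc and Cartpt, the peptide genes of POMC neurons, had their lowest values in control fed replicate 1, 5.68 and 8.84. The score of the choroid plexus markers ran from -1.49 to 1.56, and was between 0.73 and 1.56 on 7 arrays, namely control fed replicate 1, knockout fed replicates 2 to 4 and all 3 knockout fasted arrays. The numbers in the titles form a low series, which holds the 6 fasted arrays with knockout fed replicate 1, and a high series of the other 7 fed arrays, so that in control mice the fast and a series difference cannot be told apart. Agrp, the partner peptide of these neurons, is not named in the platform annotation used here and was not analysed here.

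The sequences just before the transcription starts of 4 members are shown, because these are the members whose control fasted arrays all read above the control fed arrays. They are RefSeq stretches of GRCm38.p6 in the direction of transcription, cut where they would enter the annotated gene, so that those of Serpina3n and Acvr1c are shorter. Capitals mark matches, on either strand, to the letters GGGCGG (Sp1 box), ATAAA (TATA-type) or AGAACA (hexamer of glucocorticoid response elements).
Npy (GRCm38.p6, chr6:49822460-49822709, plus strand): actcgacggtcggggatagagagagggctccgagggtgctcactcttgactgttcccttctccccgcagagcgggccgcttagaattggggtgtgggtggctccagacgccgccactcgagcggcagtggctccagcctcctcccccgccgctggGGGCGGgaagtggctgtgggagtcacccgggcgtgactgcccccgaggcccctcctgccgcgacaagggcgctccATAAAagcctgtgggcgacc
Ghsr (GRCm38.p6, chr3:27371101-27371350, plus strand): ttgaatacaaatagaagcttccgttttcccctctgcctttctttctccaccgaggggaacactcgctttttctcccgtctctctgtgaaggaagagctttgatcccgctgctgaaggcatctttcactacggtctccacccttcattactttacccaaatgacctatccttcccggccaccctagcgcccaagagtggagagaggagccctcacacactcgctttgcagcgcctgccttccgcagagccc
Serpina3n (GRCm38.p6, chr12:104406458-104406645, plus strand): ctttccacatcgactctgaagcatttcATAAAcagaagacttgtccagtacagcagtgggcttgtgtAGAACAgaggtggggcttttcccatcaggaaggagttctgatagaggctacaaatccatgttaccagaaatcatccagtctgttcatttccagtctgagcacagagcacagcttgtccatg
Acvr1c (GRCm38.p6, chr2:58357897-58358008, minus strand): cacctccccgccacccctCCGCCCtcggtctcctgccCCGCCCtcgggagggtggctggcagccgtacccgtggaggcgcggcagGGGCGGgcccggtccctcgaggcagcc
All 7 members had a start in the RefSeq table, and 8 starts were searched over 250 bases each. The Npy stretch held 1 Sp1 box, 95 bases before the start, and 1 TATA-type match, 20 bases before it. Acvr1c held 3 Sp1 boxes before the start shown and 1 TATA-type match before its other annotated start, and Ghsr held no match to any of the motifs searched. Serpina3n held 1 AGAACA match, 183 bases before its start, and 2 TATA-type matches, of which the one 23 bases before the start lies outside the stretch shown. Among the members whose stretches are not shown, Npy5r held 1 AGAACA match, 191 bases before its start, Npy2r held 1 Sp1 box, 62 bases before its start, and Npy1r held no match. Over all 32851 promoters of this length, 32.7% held an Sp1 box, 37.3% a TATA-type match and 16.1% an AGAACA match. The letters TGACG (core of cyclic AMP response elements), GTAAACA (FOXO core) and TTCNNNGAA (STAT site) occur in 17.8%, 3.17% and 7.02% of promoters and in none of the members' windows. A match is a description of letters, and its absence says nothing about the factor.

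Npy had the largest fasting difference of the 7 genes. In control fed mice its probe set, 1419127_PM_at, read 8.47, 8.65, 8.65 and 8.54 on the log2 scale. In control fasted mice it read 9.74, 9.43 and 9.90. Every control fasted array was thus above every control fed array, and the fed arrays lay within a narrow range. In knockout fed mice Npy read 9.16, 8.76, 8.81 and 9.41, and in knockout fasted mice 9.28, 9.99 and 9.15. Here the groups overlapped, with knockout fed replicates 1 and 4 above the lowest fasted array. The group means were 8.58 ± 0.09 (SD, n = 4) and 9.69 ± 0.24 (SD, n = 3) in control mice, and 9.04 ± 0.31 (SD, n = 4) and 9.47 ± 0.45 (SD, n = 3) in knockout mice. The fasted minus fed difference was 1.11 ± 0.19 (SE of the limma fit over all genes) in control mice, a 2.16-fold higher level, and 0.44 ± 0.19 in knockout mice, a 1.36-fold higher level. Without knockout fasted replicate 2, the array with the highest Npy of all, the difference in knockout mice was 0.18. Without knockout fed replicate 4 it was 0.56. Knockout fed replicate 1, the 1 fed array from the number series of the fasted arrays, had 9.16 and so lay at the level of knockout fasted replicates 1 and 3. A fit with a term for the number series, for which that array is decisive, gave 0.95 ± 0.36 in control and 0.31 ± 0.30 in knockout mice. Knockout fed replicate 4, the fed array with the highest Npy, also had a cortex and hippocampus score of 0.39. Control fed replicate 1, with a score of 0.93, had the lowest Npy of all. That array also had the lowest score of the hypothalamic markers, -0.45. With the cortex and hippocampus score as a covariate the Npy differences were 1.11 and 0.44. The part of the tissue mixture in the Npy values was not tested. In bulk tissue, fewer cells of a type and less RNA per cell cannot be told apart, which holds for every value here.

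**Figure D1:**
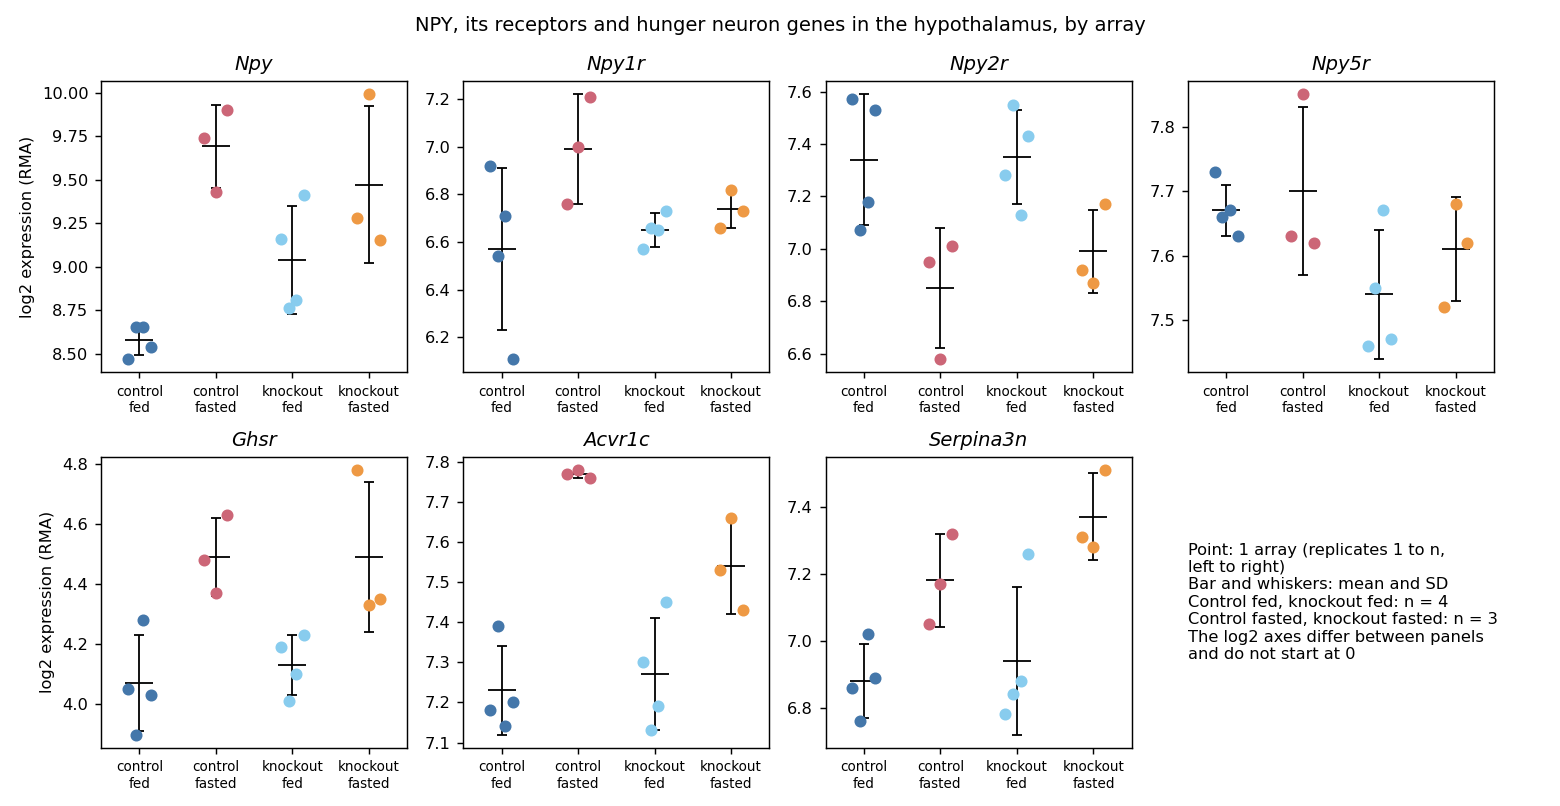
Log2 expression of each member on every array (points), with group mean and SD (black), for control and knockout mice fed (n = 4 each) or fasted (n = 3 each); the axes differ between panels. Control fed Npy lies between 8.47 and 8.65 and control fasted Npy between 9.43 and 9.90, while the knockout groups overlap; Npy2r is the member with lower means after the fast.

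The Y1 receptor gene Npy1r had overlapping groups throughout. Its probe set 1421471_PM_at read 6.92, 6.54, 6.71 and 6.11 in control fed mice and 6.76, 7.0 and 7.21 in control fasted mice. Control fed replicate 4 was the lowest array and set much of the spread in its group. Knockout fed arrays read 6.57, 6.66, 6.65 and 6.73 and knockout fasted arrays 6.66, 6.82 and 6.73. The fasted minus fed difference was 0.42 ± 0.15 (SE) in control and 0.08 ± 0.15 in knockout mice. A second Npy1r probe set had a mean of 3.66 over all arrays, at the background level, and differences of -0.02 ± 0.08 and 0.06 ± 0.08. The mean of both probe sets gave 0.20 in control mice, and the main probe set without control fed replicate 4 gave 0.27. Without control fed replicate 1, the array of highest cortex and hippocampus score, the Npy1r difference in control mice was 0.54, and with that score as a covariate it was 0.56 in control and 0.19 in knockout mice.

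Npy2r, the gene of the receptor that restrains NPY release, was the member with lower values after the fast. In control fed mice 1417489_PM_at read 7.57, 7.07, 7.18 and 7.53, and in control fasted mice 6.95, 6.58 and 7.01. All 3 control fasted arrays were below all 4 control fed arrays. In knockout mice the fed arrays read 7.28, 7.55, 7.13 and 7.43 and the fasted arrays 6.92, 6.87 and 7.17. Those groups overlapped only through knockout fed replicate 3 and knockout fasted replicate 3. The differences were -0.49 ± 0.15 (SE) in control and -0.36 ± 0.15 in knockout mice, so that levels were lower 1.41-fold and 1.28-fold. Npy2r is also expressed in the hippocampus, and the cortex and hippocampus score was highest on 2 fed arrays. It was -0.13 to 0.93 in control fed and -0.19 to -0.13 in control fasted mice. In knockout mice it was -0.17 to 0.39 when fed and -0.19 to -0.12 when fasted. With that score as a covariate the Npy2r differences were -0.40 and -0.30, and without the 2 arrays of high score -0.41 and -0.33. The part of cortex and hippocampus in the Npy2r values was not tested.

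Npy5r, the gene of the Y5 receptor, lies next to Npy1r on chromosome 8, on the opposite strand. Its main probe set, 1449312_PM_at, read 7.73, 7.66, 7.67 and 7.63 in control fed and 7.63, 7.85 and 7.62 in control fasted mice, which overlapped. Knockout fed arrays read 7.46, 7.55, 7.67 and 7.47 and knockout fasted arrays 7.52, 7.68 and 7.62. The whole range over 14 arrays was 7.46 to 7.85, and the fasting differences were 0.03 ± 0.07 (SE) in control and 0.07 ± 0.07 in knockout mice. The other Npy5r probe set spread more, from 5.72 to 6.64, with differences of 0.23 ± 0.17 and 0.13 ± 0.17. Both probe sets overlapped between fed and fasted arrays in both genotypes.

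Ghsr, the gene of the ghrelin receptor, gave a weak signal, with a mean of 4.27, only 0.63 above the background median and higher than 27.1% of genes. Control fed arrays read 4.05, 3.90, 4.28 and 4.03, and control fasted arrays 4.48, 4.37 and 4.63. Knockout fed arrays read 4.19, 4.01, 4.10 and 4.23, and knockout fasted arrays 4.78, 4.33 and 4.35. All 6 fasted arrays were above all 8 fed arrays, the narrowest gap being 4.33 against 4.28. The differences were 0.43 ± 0.12 (SE) in control and 0.35 ± 0.12 in knockout mice. Without knockout fasted replicate 1, the array with the highest Ghsr, the difference in knockout mice was 0.21. All Ghsr values, from 3.90 to 4.78, lay within the range of the probe sets with no target, 3.41 to 5.28. The values alone therefore do not show that the signal comes from the Ghsr transcript. So close to background, the processing also compresses differences, which can understate a change.

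Acvr1c is the gene of the activin-type receptor ALK7, which signals through SMAD proteins. In control fed mice 1438309_PM_at read 7.18, 7.39, 7.14 and 7.20, and in control fasted mice 7.77, 7.78 and 7.76. All control fasted arrays were above all control fed arrays, of which the highest read 7.39. Knockout fed arrays read 7.30, 7.13, 7.19 and 7.45, and knockout fasted arrays 7.53, 7.66 and 7.43. In knockout mice fed replicate 4 was above the lowest fasted array. The differences were 0.54 ± 0.08 (SE), or 1.46-fold, in control and 0.27 ± 0.08, or 1.21-fold, in knockout mice. A second probe set, 1443225_PM_at, had differences of 0.55 ± 0.10 and 0.12 ± 0.10, with control fed arrays from 6.45 to 6.59 and control fasted arrays from 7.0 to 7.10. A further probe set, with a mean of 4.68 over all arrays, stood at 0.00 ± 0.14 and 0.05 ± 0.14. Its values, from 4.37 to 5.19, lay within the range of the probe sets with no target, 3.41 to 5.28. At that level a change would hardly be seen. The mean of all probe sets of Acvr1c, which includes this weak one, gave 0.37 in control and 0.15 in knockout mice.

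Serpina3n encodes a secreted inhibitor of serine proteases that arcuate hunger neurons express, as do astrocytes and oligodendrocytes. Control fed arrays of 1419100_PM_at read 6.86, 6.76, 7.02 and 6.89, and control fasted arrays 7.05, 7.17 and 7.32. Knockout fed arrays read 6.78, 6.84, 6.88 and 7.26, and knockout fasted arrays 7.31, 7.28 and 7.51. The groups did not overlap in either genotype, though the closest arrays were 7.02 and 7.05 in control and 7.26 and 7.28 in knockout mice, and knockout fed replicate 4 was the highest fed array. The differences were 0.30 ± 0.11 (SE) in control and 0.43 ± 0.11 in knockout mice. A term for the number series, for which knockout fed replicate 1 is decisive, gave 0.51 and 0.59. That array had the lowest Serpina3n of its group, 6.78. The astrocyte marker score was also higher in the fasted groups. It was -0.13 to -0.04 in control fed, 0.10 to 0.24 in control fasted, -0.12 to -0.05 in knockout fed and 0.01 to 0.11 in knockout fasted mice. Knockout fed replicate 4, the fed array with the highest Serpina3n, had an astrocyte score of -0.08. In the fasting contrast averaged over genotypes 4 of these 10 markers rose and 1 fell, where 10.0% of all genes passed. In control mice alone it was again 4 and 1, where 2.76% of all genes passed. In knockout mice it was 2 and 0, where 0.696% passed. Oligodendrocyte markers, of which 1 of 7 rose and 2 fell in the averaged contrast, had scores of 0.08 to 0.18, -0.20 to -0.17, -0.01 to 0.23 and -0.33 to 0.06 in the same order. The part of these cells in the Serpina3n values was not tested.

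Counted over the members, fasted arrays were all above fed arrays for 4 of 7 genes in control mice (Npy, Ghsr, Acvr1c and Serpina3n), where 7.94% of all genes showed this, and all below for 1 of 7 (Npy2r), where 8.57% did. In knockout mice they were all above for 2 of 7 (Ghsr and Serpina3n), against 7.37% of all genes, and all below for 0 of 7, against 5.64%. Over both genotypes together they were all above for 1 of 7 (Ghsr), against 1.92% of all genes, and all below for 0 of 7, against 1.49%. Since the members were chosen on this contrast, nothing is read from these counts.

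**Figure D2:**
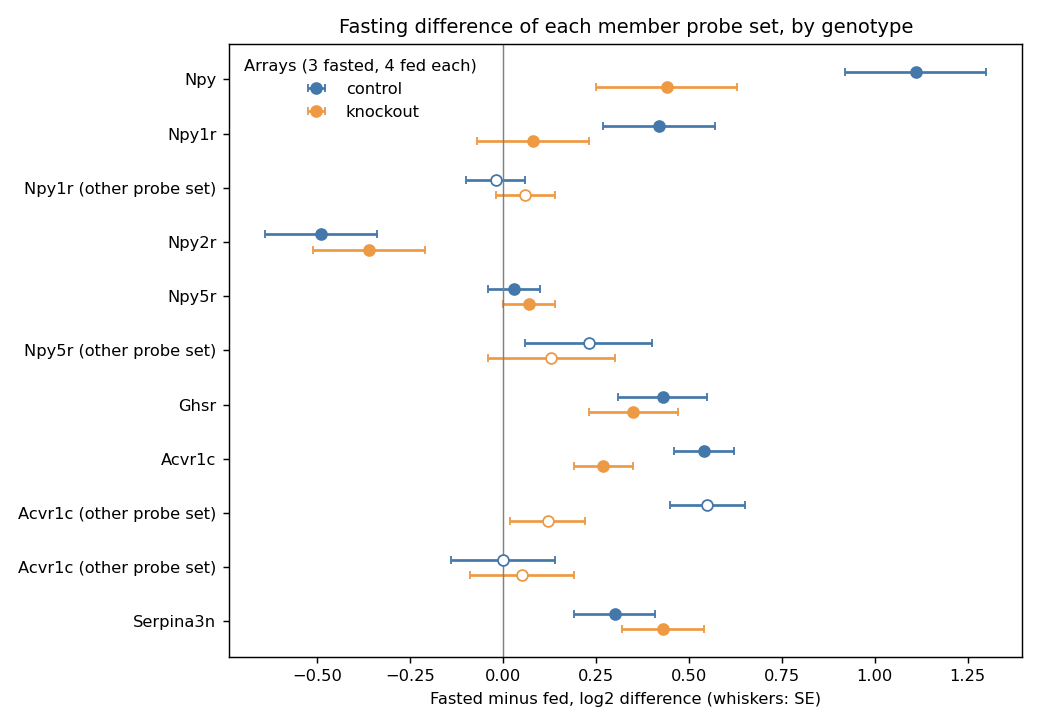
Fasted minus fed log2 difference with SE for each probe set of the members, in control (blue) and knockout (orange) arrays, 3 fasted and 4 fed each; filled points are the probe sets used in the text, open points the others. Npy in control mice stands at 1.11 and in knockout mice at 0.44, Npy2r lies left of 0 in both, and the weakest probe sets of Acvr1c and Npy1r lie near 0.

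The genotype comparison asked whether loss of Mfn1 from POMC neurons altered these genes in the tissue. Of the 7 members, 0 passed an adjusted p of 0.05 in limma in fed mice, where 0.00585% of all genes did, and 0 passed in fasted mice, where 0% did. At an unadjusted p under 0.05 there was 1 member of 7 in each, against 4.62% and 3.87% of all genes. In fed mice this was Npy, with knockout arrays higher by 0.46 ± 0.18 (SE; 95% interval 0.07 to 0.85; limma adjusted p = 0.995). All 4 knockout fed arrays, from 8.76 upwards, were above all 4 control fed arrays, which reached 8.65, and 2.46% of all genes were separated in fed mice in either direction. Without knockout fed replicate 4 the difference was 0.33, and without both arrays of high cortex and hippocampus score 0.30. In fasted mice the gene was Acvr1c, lower in knockout mice by -0.23 ± 0.09 (95% interval -0.42 to -0.04; limma adjusted p = 1.0000). Its 3 knockout fasted arrays reached 7.66 and its 3 control fasted arrays began at 7.76, a separation that 7.64% of all genes showed. Its second probe set differed by -0.37 ± 0.11 and its weakest by -0.16 ± 0.15. Neither difference passes over all genes, and the intervals are those of single genes. All 7 choroid plexus markers had higher group means in knockout mice, by a median of 1.42 in fed and 1.58 in fasted mice, and 0 of 7 passed in either. Their score did not follow genotype on every array, with -1.30 in knockout fed replicate 1 and 0.73 in control fed replicate 1. Their part in the Npy and Acvr1c values was not tested.

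The remaining differences between genotypes had 95% intervals that include 0. In fed mice Npy1r, Npy2r, Ghsr, Acvr1c and Serpina3n differed by 0.01 to 0.08 and Npy5r by -0.14 ± 0.07 (SE; 95% interval -0.28 to 0.01). In fasted mice Npy differed by -0.22 ± 0.21, with a 95% interval of -0.67 to 0.23. With 1 array left out it ran from -0.48 (without knockout fasted replicate 2) to -0.055 (without knockout fasted replicate 3), and it was -0.35 without control fasted replicate 2, -0.11 without control fasted replicate 3 and -0.12 without knockout fasted replicate 1. Npy1r was at -0.25 ± 0.16 and Serpina3n at 0.19 ± 0.12. Npy2r, Npy5r and Ghsr were at 0.14 ± 0.16, -0.09 ± 0.08 and -0.01 ± 0.12. A missed threshold does not show equal levels: for Ghsr in fasted mice the interval runs from -0.27 to 0.26.

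Whether the fasting difference itself depended on genotype was tested as an interaction, where a negative value means a smaller fasting difference in the knockout. This value contains the control fasting difference, which was known when the members were named, so the test is not independent of that choice. In limma 0 of 7 members passed, as did 0% of all genes, and 2 of 7 had an unadjusted p under 0.05, against 3.83% of all genes. Npy had the value farthest from 0, -0.67 ± 0.28 (SE; 95% interval -1.27 to -0.08; limma adjusted p = 0.9999). It was -0.93 without knockout fasted replicate 2 and -0.51 without both arrays of high cortex and hippocampus score. The other was Acvr1c, at -0.27 ± 0.12 (95% interval -0.52 to -0.02; limma adjusted p = 0.9999), and its second probe set stood at -0.43 ± 0.15. Npy1r was farther from 0 with a wider error, at -0.34 ± 0.21, and was -0.12 with both its probe sets averaged and -0.18 without control fed replicate 4. For Npy2r, Npy5r, Ghsr and Serpina3n the values lay between -0.07 and 0.13, with SEs of 0.10 to 0.21. The smaller Npy and Acvr1c differences in knockout mice are therefore not separated from those of control mice after adjustment over all genes.

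**Figure D3:**
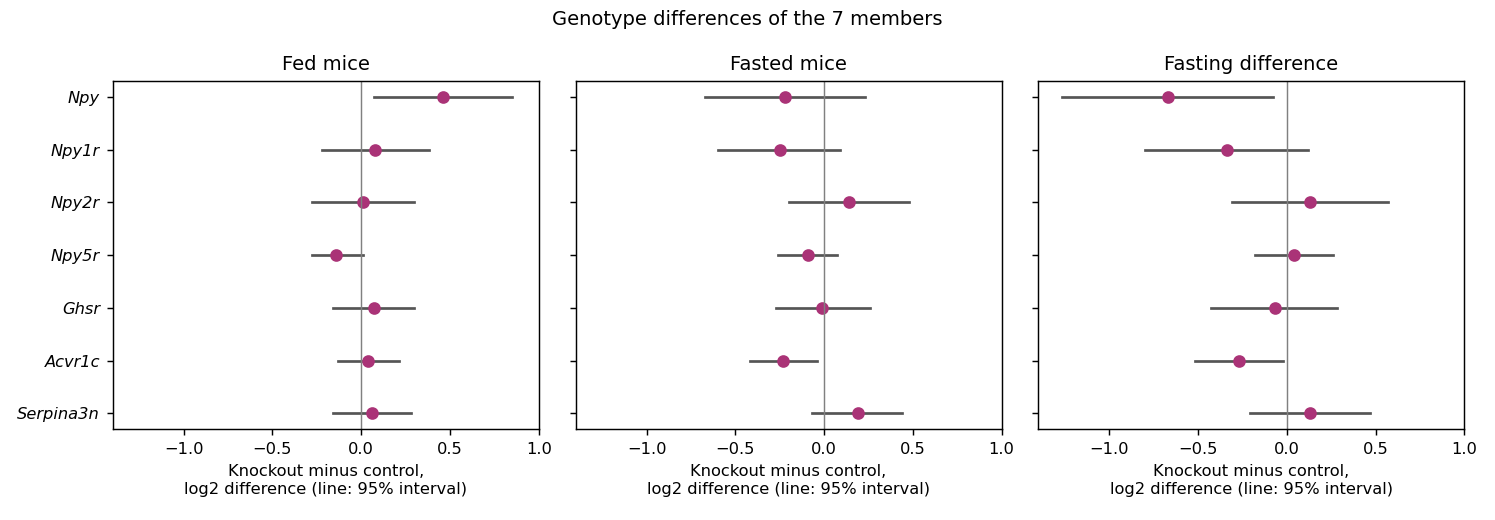
Knockout minus control log2 difference (points) with its 95% interval (lines) for the 7 members in fed mice (n = 4 each), in fasted mice (n = 3 each), and for the fasting difference itself. The lines for Npy in fed mice (0.07 to 0.85), Acvr1c in fasted mice (-0.42 to -0.04) and both in the right panel leave out 0 before adjustment, and none passes over all genes.

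The order of the group levels differed between members. For Npy it ran from control fed (8.58) through knockout fed (9.04) and knockout fasted (9.47) to control fasted (9.69), and only the step from control fed to knockout fed joined groups that did not overlap. For Acvr1c the same order held, from 7.23 through 7.27 and 7.54 to 7.77, and only the last step was free of overlap. Ghsr had control fed and knockout fed at 4.07 and 4.13 and both fasted groups at 4.49, with the gap between knockout fed and knockout fasted. Serpina3n ran from control fed (6.88) through knockout fed (6.94) and control fasted (7.18) to knockout fasted (7.37), with every pair of neighbours overlapping. Npy2r had control fasted lowest (6.85), then knockout fasted (6.99), and both fed groups at 7.34 and 7.35. Neighbours in the orders of Npy1r, Npy2r and Npy5r overlapped as well.

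Within the knockout groups, arrays deviated from their group mean for Npy in a way that Acvr1c partly shared. In control fasted replicates 1 to 3 Npy deviated by 0.05, -0.26 and 0.21, and Acvr1c by only 0.0, 0.01 and -0.01. Knockout fasted replicate 2 was 0.52 above its group mean for Npy and 0.12 for Acvr1c, and knockout fed replicate 4 was 0.38 and 0.18 above. Knockout fed replicates 2 and 3 were below it for both genes, by deviations of -0.28 and -0.22 for Npy and -0.14 and -0.08 for Acvr1c. As a description over the 14 arrays, with group means removed and each array contributing RNA, labelling and normalisation to both genes, Pearson's r of these deviations between Npy and Acvr1c was 0.73. With 1 array left out it ran from 0.64 to 0.81. For the other members r with Npy was between -0.32 (Npy5r) and 0.20 (Serpina3n), and these values moved with single arrays: with 1 array left out Npy5r ran from -0.79 to -0.13, Serpina3n from -0.27 to 0.50, Ghsr (0.12) from -0.02 to 0.57, Npy2r (-0.07) from -0.30 to 0.11 and Npy1r (0.15) from 0.05 to 0.29. Of all genes, the 4 with the highest r were Ptpn23 (0.95), Tsc22d3 (0.95), Lvrn (0.93) and Cul1 (0.92), and the 2 with the lowest were Galnt12 and Ifit1bl1 (-0.91 each). Tsc22d3, which encodes a leucine zipper protein known to be induced by glucocorticoids, deviated by 0.51 in knockout fasted replicate 2 and 0.38 in knockout fed replicate 4, close to Npy. Lvrn and Galnt12 had means of 3.91 and 4.22, near background. These 6 genes were picked as the extremes among 17097 genes.

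**Figure D4:**
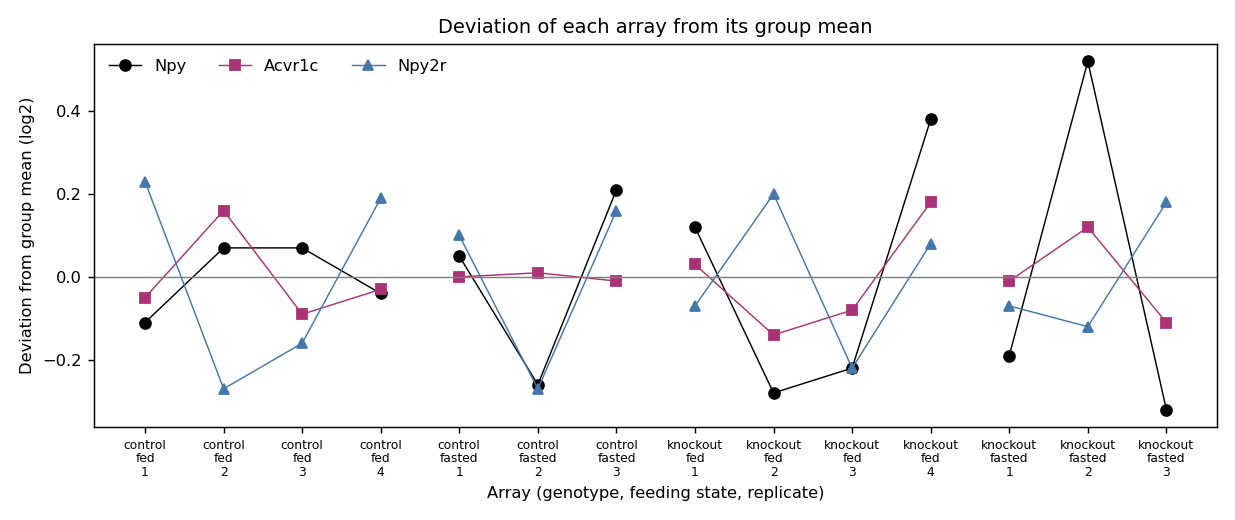
Deviation of each array from its group mean (log2) for Npy (black), Acvr1c (purple) and Npy2r (blue); lines join arrays of one group only to guide the eye. Npy and Acvr1c are both highest in knockout fasted replicate 2 (0.52 and 0.12) and knockout fed replicate 4 (0.38 and 0.18) of their groups, and Npy2r does not follow them.

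Other genes of the same pathways were tested for the averaged fasting difference, from 8 lists holding 93 genes besides the members, of which 75 were measured. The lists were chosen with earlier results of these data known, so the counts and p-values of list genes are not independent of that choice. In limma 3 rose and 2 fell, 6.67% of the 75, against 10.0% of all genes tested (5.14% higher and 4.90% lower), and 70 did not pass. In control mice alone 1 of the 75 passed (Gnai2), against 2.76% of all genes, and in knockout mice 0, against 0.696%. The median of the 75 was 0.00, and that of all genes 0.0025. The other NPY family genes, namely the peptide genes Pyy and Ppy and the receptor genes Npy4r and Npy6r, were between -0.05 and 0.06, and 0 of 4 passed. Of 3 ghrelin signal genes 0 passed: the hormone gene Ghrl was at 0.01 ± 0.06 (SE), Mrap2, a partner of the ghrelin receptor, at 0.04 ± 0.06, and Leap2, which encodes a peptide that blocks it, at 0.04 ± 0.06. Pyy, Ppy, Npy4r, Npy6r, Ghrl and Leap2 had means of 3.72 to 4.22, near background, where a change would hardly be seen.

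Among 17 activin receptors, ligands, inhibitors and SMADs besides Acvr1c, 1 rose (5.88%), where 5.14% of all genes did. Smad4, the common partner of the receptor-activated SMADs, was 9.52 to 9.79 on fed arrays (median 9.66) and 9.77 to 9.93 on fasted arrays (median 9.86). The groups met at 1 fed array, and the difference was 0.20 ± 0.04 (limma adjusted p = 0.0139). With the mean of its probe sets it was 0.087 and did not pass. The median of the 17 genes was -0.07.

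Of 15 further genes of the NPY and agouti-related peptide neurons, 2 rose and 0 fell (13.3%), where 10.0% of all genes passed. In bulk tissue their values cannot be assigned to these neurons. Vgf, the precursor of peptides released with neuropeptides, was 10.20 to 10.47 on fed arrays (median 10.31) and 10.40 to 10.61 on fasted arrays (median 10.45), a difference of 0.16 ± 0.04 (limma adjusted p = 0.0312). It passed in 10 of 22 alternatives, and the call ended (adjusted p of 0.0514 to 0.0704) without any 1 of control fed replicates 1, 3 and 4, control fasted replicates 2 and 3, knockout fed replicates 2 and 3 or knockout fasted replicates 1 and 2. Insr, the insulin receptor gene, was 7.97 to 8.20 on fed arrays and 8.18 to 8.42 on fasted arrays, a difference of 0.20 ± 0.05 (limma adjusted p = 0.0286). The mean of the Insr probe sets turned the sign, to -0.044, and Insr passed in 12 of 22 alternatives. Its call ended (adjusted p of 0.0510 to 0.0630) without any 1 of control fed replicate 2, control fasted replicates 1 and 2, knockout fed replicate 3 or knockout fasted replicates 1 and 3.

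A list of 11 signalling partners of NPY receptors held genes of inhibitory G proteins, their regulators (Rgs4, Rgs7), potassium channel subunits and an adenylyl cyclase (Adcy5). Of these 11 genes 2 fell, where 4.90% of all genes did. Kcnj9, which encodes a subunit of G protein-gated potassium channels, was 8.68 to 8.96 on fed and 8.24 to 8.79 on fasted arrays, a difference of -0.32 ± 0.08 (limma adjusted p = 0.0189). Gnai2, an inhibitory G protein subunit gene also abundant in microglia, was 10.53 to 10.73 on fed and 10.38 to 10.63 on fasted arrays, a difference of -0.19 ± 0.04 (limma adjusted p = 0.0189). Microglial markers were lower on the same arrays, with 5 of 10 fallen in the averaged contrast, where 4.90% of all genes fell. In control mice alone 4 fell and in knockout mice alone 0, where 2.76% and 0.696% of all genes passed in either direction. Microglial scores were 0.17 to 0.25 in control fed and -0.34 to -0.15 in control fasted mice. They were 0.02 to 0.14 in knockout fed and -0.30 to 0.00 in knockout fasted mice. The part of microglia in the Gnai2 value was not tested. Both calls ended without knockout fasted replicate 2, at adjusted p of 0.0538 for Kcnj9 and 0.0516 for Gnai2.

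In the remaining lists no gene passed. Of 11 peptide processing genes, the one with the smallest p was Pcsk1n, which encodes an inhibitor of the prohormone convertase, at 0.13 ± 0.04 (limma adjusted p = 0.0595), with fed arrays of 11.23 to 11.46 and fasted arrays of 11.49 to 11.56. Dpp4 and Mme, peptidases that can cleave NPY, were at 0.17 ± 0.09 and 0.13 ± 0.08. Of 12 reactive glia genes besides Serpina3n, Osmr was at 0.27 ± 0.08 (limma adjusted p = 0.0506), Cxcl10 at -0.20 ± 0.07 and Cp at 0.29 ± 0.14. Dpp4, Mme, Osmr, Cxcl10 and Cp had means of 4.13, 4.0, 4.96, 4.19 and 4.67. These lie within the range of the probe sets with no target, 3.41 to 5.28. Pcsk1n passed in 6 of 22 alternatives, among them those without knockout fed replicate 1 or 4, both at 0.15. Osmr passed in 6 of 21, among them that without knockout fasted replicate 1 (0.30) and those lacking knockout fed replicate 3 or 4 (both 0.29). Cp passed in 3 of 21, among them that without control fed replicate 1 (0.41), and Cxcl10 in 1 of 21, without knockout fed replicate 1 (-0.23). The 2 measured relatives of Serpina3n, Serpina3a and Serpina3i, were at 0.06 ± 0.06 and -0.07 ± 0.05, with means near background. The share of the 75 genes that passed moved with the fit, as did that of all genes. With a term for the number series 0 of the 75 passed, and 15 of all 17097 genes (0.0877%). Without knockout fasted replicate 2 the list count was 2 (2.67%, against 5.84% of all genes), and without control fasted replicate 2 it was 3, where 9.57% of all genes passed. With the cortex and hippocampus score as a covariate 9 of the 75 passed (12.0%, against 7.11%), and without both arrays of high score 7 (9.33%, against 8.73%). In these 2 fits the share of the lists was above that of all genes, and in the other fits it was below.

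**Figure D5:**
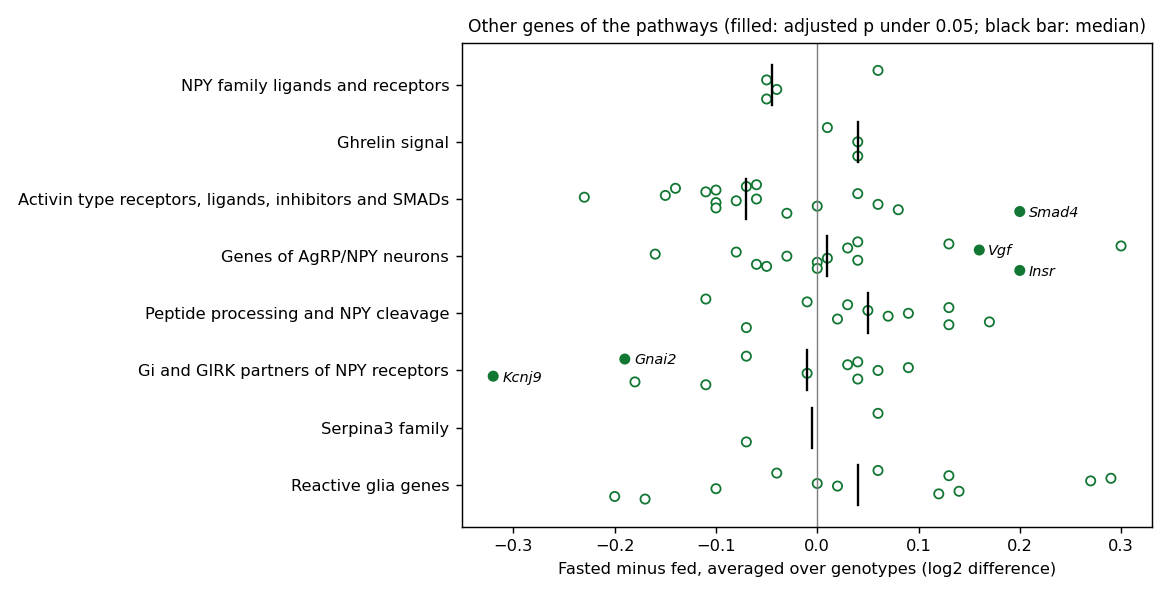
Fasted minus fed log2 difference averaged over genotypes for the genes of each pathway list that are not members (circles; filled where the adjusted p is under 0.05) with the median of the list (black bar). Smad4, Vgf and Insr lie right of 0 at 0.16 to 0.20, Gnai2 and Kcnj9 left of 0 at -0.19 and -0.32, and each list's median is between -0.07 and 0.05.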

How the data were processed

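Hypothalamic RNA of 14 mouse samples, 150 ng each, was measured on Affymetrix arrays. The deposited values are log2 expression values per probe set, for which the submitters' processing notes name RMA and affy without versions, so that the authors' values are log2. RMA corrects background, brings arrays to a common distribution and summarises probes, which compresses differences of dim probe sets. Genome build: not given in the sources. The table holds 45141 probe sets, of which 28898 name 1 gene, 551 several and 15692 none in the platform annotation; only the first were used. Array medians lay between 4.98 and 5.05 and any pair shared at most 2.9% of values, so each array counted as 1 sample. The number of arrays limits the precision.

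Each of 17097 genes was represented by its probe set with the highest mean. The fit used limma 3.58.1 under R 4.3.3 (lmFit with 1 coefficient per group over 14 arrays, eBayes; 10 residual and 3.27 prior degrees of freedom). Tests were two-sided, with Benjamini-Hochberg adjustment over all genes and a threshold of 0.05. The pipeline was tested on simulated data. The members and lists were chosen with earlier results of these data known. Named genes were the members, the list genes that passed or else the 3 per list with the smallest p, the genes most like Npy, and Mfn1, Pomc and Cartpt. Alternatives were averaging the probe sets of a gene, a filter on the lowest 40% of genes, a trended and robust prior, only the groups compared, 2 covariates (number series; cortex and hippocampus score), median centring, array weights and leaving out each of the 14 arrays. Leaving out both arrays of high cortex and hippocampus score was added after seeing the data.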

Additional observations from a re-analysis of the deposited data

How the results depend on the processing

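No paired analysis was possible because the sample titles carry no shared replicate numbers. For the members, none of the genotype or interaction values passed in any alternative fit (473 values for 21 results, smallest limma adjusted p 0.721). Of these values, 453 kept their direction and 20 reversed. The fasting difference of Npy ran over the alternatives from 0.95 to 1.13 in control and 0.31 to 0.56 in knockout mice, and with 1 array left out from 1.01 to 1.24 and 0.18 to 0.60. The averaged contrast and the interaction could not be fitted with only the groups compared, and Ghsr is removed by the filter on dim genes. The count of 5 other list genes, with 1715 of all genes, was 8 (2137 of all genes) with the trended and robust prior, 9 (1215) with the cortex and hippocampus score, 0 (15) with the number series as a covariate, and 2 to 7 (998 to 2120) with 1 array left out.

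Signs turned for values near 0. For knockout minus control in fed mice, Npy2r was at -0.0025 with median centring, Acvr1c at -0.035 with the mean of probe sets and -0.037 without both arrays of high cortex and hippocampus score, and Serpina3n at -0.057 without those arrays. With array weights Ghsr was at 0.081 in fasted mice and at 0.033 for the interaction, and Npy5r at -0.0021 for the interaction, or -0.032 with the mean of probe sets. With 1 array left out, the fed genotype difference ran from -0.071 to 0.20 for Npy1r, -0.079 to 0.087 for Npy2r, -0.021 to 0.094 for Acvr1c and -0.049 to 0.11 for Serpina3n, that of fasted mice from -0.15 to 0.072 for Ghsr, and the interaction from -0.0033 to 0.22 for Npy2r and -0.22 to 0.0042 for Ghsr. In the averaged fasting contrast, the number series as a covariate turned Npy6r (0.17), Leap2 (-0.040), Mrap2 (-0.15; -0.012 with the cortex and hippocampus score), Serpina3i (0.046) and Cxcl10 (0.019), the mean of probe sets turned Insr (-0.044), and Ghrl ran from -0.030 to 0.032 with 1 array left out. For Npy5r the fasting difference of control mice ran from -0.05 to 0.07. The cause was not tested. Probe sets near background, such as Ghsr, limit what could be seen.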
